A study of Homo sapiens with 4 samples.

Results

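The RAS and RAF family described here comprised 8 genes. These were the RAS-type GTPase genes HRAS, NRAS, RRAS, RRAS2 and MRAS, the RAF kinase genes ARAF and BRAF, and the RAF scaffold gene KSR1. Members were chosen by name, and every predicted N6-methyladenosine (m6A) site in an exon of a member gene on the same strand was taken, which gave 10 of the 18789 listed sites. The sites lay in 3 members, with 5 in ARAF, 3 in HRAS and 2 in RRAS. NRAS, RRAS2, MRAS, BRAF and KSR1 had no listed site. Among all protein-coding genes of the annotation, 3760 of 18759 (20.0%) carried at least 1 listed site.

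The sites came from miCLIP2, in which ultraviolet light links an m6A antibody to fragmented RNA and reverse transcription stops at the linked base. The material was polyadenylated RNA of untreated wild-type C643 cells, a line derived from an anaplastic thyroid carcinoma and grown in DMEM with fetal bovine serum. There was 1 group of 3 biological replicates, the first sequenced as 2 technical libraries, and the list pooled them. It held no read counts, no expression values and no values per replicate, so the depth behind each site was unknown, a missing site could not be told apart from a gene with few reads, and the replicate error of a score could not be given. None of TG, TSHR, PAX8, NKX2-1, FOXE1 and SLC5A5, which mark thyroid follicular cells, had a listed site, and without expression values this did not bear on the identity of the line.

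RAS proteins are small GTPases that switch between a GTP-bound active and a GDP-bound inactive state at the inner face of the plasma membrane. In the active state they recruit RAF kinases, which phosphorylate MEK kinases, which in turn phosphorylate ERK kinases, and this cascade passes growth factor signals to the cell cycle. In messenger RNA, m6A is written mainly within the DRACH motif, whose D, R and H each allow more than one base and whose A is the methylated one, with many sites near stop codons and in long exons, and it is known for shortening the life of transcripts.

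The sequences around 7 of the 10 sites are shown, namely the highest-scored site of each member, all sites outside DRACH and the coding site of RRAS, since they hold the contrast between canonical and other sites. Each is 21 nt of the transcribed strand, 5′ to 3′, from the GRCh38 genome. Capitals mark the pentamer with the predicted A at its centre. The coding site was added after its values were seen.
HRAS 3′ UTR, chr11:532347-532367, minus strand: ctgtgcacAGACTgtcttgaa
RRAS 3′ UTR, chr19:49635527-49635547, minus strand: agctctcgGGACTagctgcct
RRAS coding, chr19:49640035-49640055, minus strand: ggggcgggGGACCtgggcccg
ARAF 3′ UTR, chrX:47571632-47571652, plus strand: cccgccaaAGACTgagccccc
ARAF 3′ UTR outside DRACH, chrX:47571691-47571711, plus strand: atacttctAAATTttgggagc
ARAF 3′ UTR outside DRACH, chrX:47571787-47571807, plus strand: cttccactGGATTttggggtt
ARAF 3′ UTR outside DRACH, chrX:47571815-47571835, plus strand: ccccatgtGGATTttgggggg
The highest-scored sites of HRAS and ARAF shared the pentamer AGACT, and that of RRAS was GGACT. The coding site of RRAS sat in a stretch of G and C, whereas the 3 ARAF sites outside DRACH were each followed by a run of T and then G.

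HRAS, which encodes a GTPase close in sequence to NRAS, carried all 3 of its sites in the 3′ UTR. In the longest well-supported transcript, of 1151 nt, they lay in the last of 5 exons, which was 513 nt long. The first, at position 532510 of chromosome 11, was a GGACA 128 nt after the first base of the stop codon and had a prediction score of 0.819. The score is the output of the m6Aboost classifier and ran from 0.5 to 1 in the list, so it ranks how firmly a site was called and is not a methylation level. The second HRAS site, a GGACC at 532405, scored 0.823, and the third, an AGACT at 532357, scored 0.947. The first pair were therefore close in score and the third stood above them, with 97.3% of all listed sites below it. Among the 1870 listed sites at AGACT, whose median score was 0.774, 97.9% lay below it. The sites were 105 and 48 nt apart.

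The isoform set the distances of the HRAS sites but not their region. All 7 annotated isoforms in which the first HRAS site was exonic placed it in the 3′ UTR. In the Ensembl canonical transcript an intron is removed after the stop codon, so the 3 sites lay in a last exon of 281 nt, 13, 118 and 166 nt from the junction before it. In the longest transcript that stretch is retained, and the nearest junction was 246 nt from the first of them. From the stop codon, the canonical distances were 20, 125 and 173 nt, against 128, 233 and 281 nt. The list does not say which isoform carried the sites.

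RRAS, which encodes an R-RAS GTPase linked to integrin-mediated adhesion, held the single coding site of the family. This GGACC at position 49640045 of chromosome 19 lay in exon 1 of 6, 53 nt after the first base of the start codon and 100 nt from the nearest junction. Its score of 0.545 was the lowest of the 10, with 8.16% of all listed sites and 7.64% of those at GGACC below it. The other RRAS site, a GGACT at 49635537 in the last exon of 369 nt, lay 41 nt after the first base of the stop codon, nearer to a stop codon than any other member site in the longest transcripts. It scored 0.774, which was ahead of 55.1% of all listed sites but of only 34.2% of the 4072 sites at GGACT, the pentamer with a median score of 0.833. RRAS thus had 1 site near each end of its coding sequence, 642 nt apart along the transcript.

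ARAF, a RAF kinase encoded on the X chromosome, had the most sites of the family. All 5 lay in the 586-nt last exon of its 16, in the 3′ UTR, between 187 and 411 nt after the first base of the stop codon. The AGACT at 47571642 scored 0.928 and had 94.7% of all listed sites below it. Further downstream came an AAATT at 47571701 with a score of 0.60, a GGATT at 47571797 with 0.615, a GGATT at 47571825 with 0.722 and a GGACT at 47571866 with 0.722. The score was thus highest at the site nearest the stop codon, and the other 4 lay below the median of all listed sites, 0.754. Within its pentamer the order was different, since the second GGATT exceeded 92.7% of the 191 listed GGATT sites, whereas the GGACT exceeded only 23.6% of GGACT sites. Neighbouring ARAF sites were 59, 96, 28 and 41 nt apart, and the last was 43 nt from the annotated 3′ end.

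**Figure D1:**
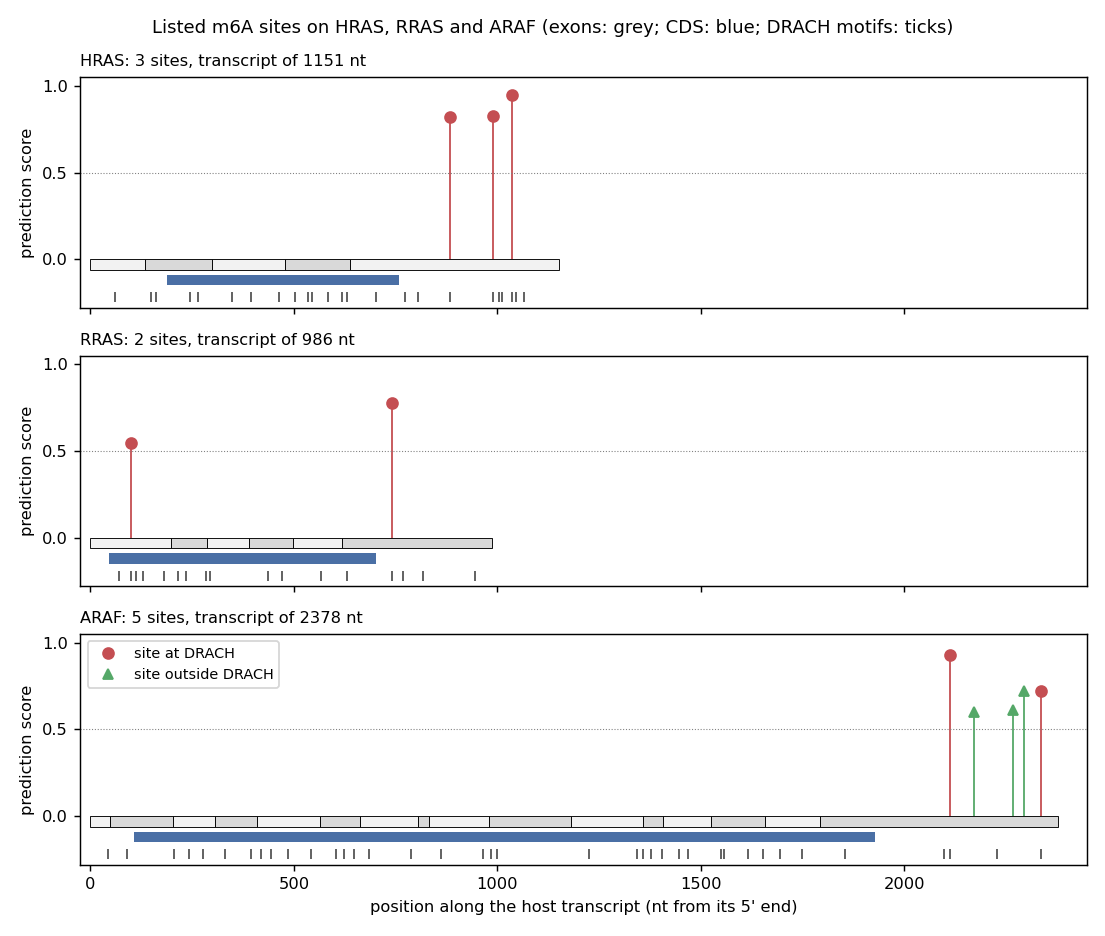
Prediction scores (vertical axis, no unit) of the listed sites along the longest well-supported transcripts of HRAS, RRAS and ARAF (horizontal axis, nt from the 5′ end). Boxes are exons in alternating shades, the blue bar is the coding sequence, ticks are DRACH motifs, circles are sites at DRACH and triangles sites outside it; 9 of the 10 sites stand in the last exon.

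The 3 ARAF sites outside DRACH had a T in place of the C after the A. Such sites, with no C after the A, made up 3 of the 10 member sites and 472 of all 18789 listed sites (2.51%). The pentamer GGATT accounted for 2 of the 10 member sites and 191 sites of the list (1.0%), and ARAF held 1 of the only 2 sites at AAATT. In the sequences shown above, the 3 sites all read ATTTTGGG from the predicted A onwards, and those at 47571797 and 47571825 shared a run of 12 nt, TGGATTTTGGGG, that starts 3 nt before the A. ARAF was therefore the source of every member site outside DRACH, and these sites resembled each other over more than the pentamer.

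The run ATTTTGGG was looked up after it had been seen in these sequences, so its counts describe and test nothing. It occurred 264 times in the longest transcripts of protein-coding genes with a site, and 7 of these occurrences were listed (2.65%, 95% Wilson interval 1.29 to 5.37). The 3 in ARAF, all of its occurrences, were among the 7, and the 7 came from 5 genes. By comparison, 181 of 8853 occurrences of GGATT (2.04%) and 2 of 9596 of AAATT (0.021%) were listed in these transcripts. The 5 members without sites held no ATTTTGGG, but 23 GGATT and 66 AAATT, all unlisted by definition of that group. Intervals here and below cover the sampling of motifs or sites only.

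The scores of the member sites ran from 0.545 to 0.947, with a median of 0.748 beside 0.754 over all sites with quartiles of 0.640 and 0.847. The 7 sites at DRACH had a median of 0.819 beside 0.769 for DRACH sites in the whole list, and the 3 outside DRACH 0.615 beside 0.621. In the list as a whole, sites outside DRACH therefore scored lower, and the ARAF sites lay at the level of that class. Sequence and region were inputs of the classifier, so scores of different pentamers or regions are not independent of them.

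**Figure D2:**
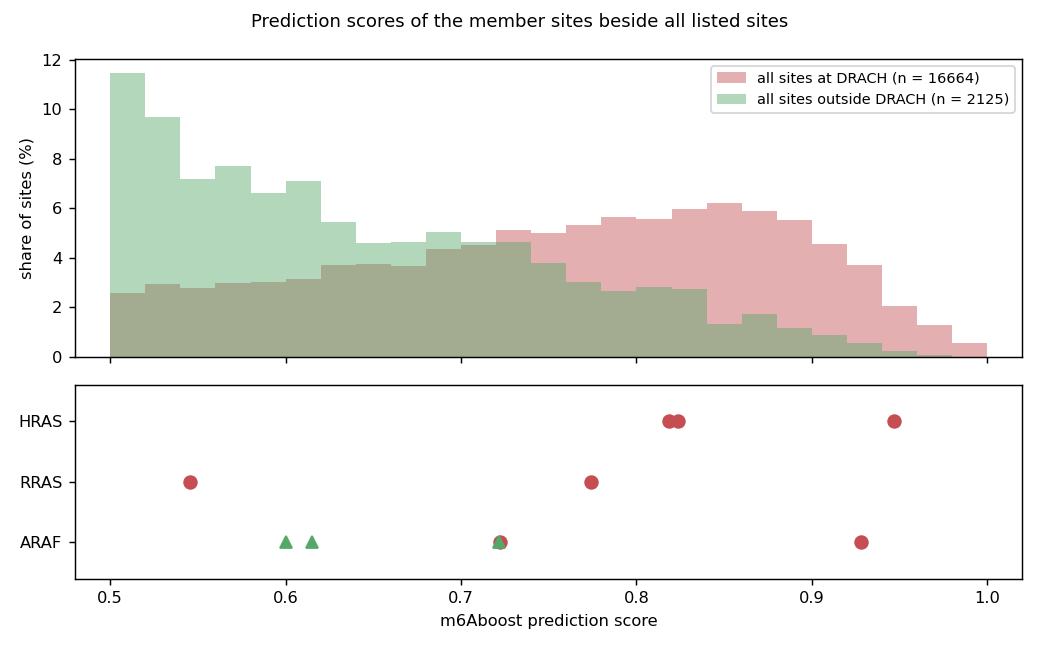
Upper panel, share of listed sites (%) by prediction score for sites at DRACH (red) and outside DRACH (green). Lower panel, the 10 sites of HRAS, RRAS and ARAF on the same score axis, with circles for DRACH and triangles for other pentamers; HRAS sites lie at 0.819 or above and the ARAF sites outside DRACH at 0.722 or below.

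Most of the sites lay at the 3′ end of the transcript. Of the 10 sites, 9 lay in the 3′ UTR (90.0%, 95% Wilson interval 59.6 to 98.2), beside 51.4% of all listed sites. The last exon held 9 of 10, beside 72.1%. Within 200 nt of the first base of the stop codon lay 3 of 10 (30%), beside 31%, although 5 of 10 (50%) did in the canonical transcripts. The share in the 3′ UTR was thus above that of the list, while the share near the stop codon was close to it. These shares of the list count all 18789 sites, of which 17693 lay in an exon of the transcript chosen for their gene. All 10 member sites lay in such exons, so the bases differ. Sites of 1 transcript are not independent, and 5 of the 10 came from ARAF, so the interval is narrower than the true uncertainty.

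All DRACH motifs in the longest transcripts of the 8 members were then counted, 590 in total, to see which of the possible positions were listed. Of these, 7 were listed (1.19%, 0.576 to 2.43), and 511 lay in the 5 members that have no site. In all protein-coding transcripts with a site, 15497 of 210772 (7.35%) were listed, which can be set only beside the 3 members with sites. The shares were 3 of 24 in HRAS (12.5%), 2 of 17 in RRAS (11.8%) and 2 of 38 in ARAF (5.26%), and their intervals overlapped. The 3 together gave 7 of 79 (8.86%, 4.36 to 17.2), an interval that included the 7.35% of the list. The 511 motifs of the 5 other members were unlisted by definition, since these members have no site, and the reason was not tested.

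In the 3′ UTR, 6 of the 17 motifs of HRAS, RRAS and ARAF were listed (35.3%, 17.3 to 58.7), beside 9.09% in all protein-coding transcripts with a site. Over all 8 members, 6 of 368 were listed (1.63%). HRAS contributed 3 of 9, RRAS 1 of 4 and ARAF 2 of 4. Their 3′ UTRs were short, at 393, 284 and 451 nt, whereas the 9.09% covers 3′ UTRs of any length. These 3 genes were taken because they hold a site, and with so few motifs 1 listed motif already gives a high share. The 35.3% can therefore not be read as an excess, and motifs of 1 transcript are not independent. Within 200 nt of the stop codon on either side, 3 of the 16 motifs of these 3 members were listed (18.8%, 6.59 to 43.0). That share was close to the 19.4% in all protein-coding transcripts with a site. The 5 other members, which have no site by definition, held 351 motifs of the 3′ UTR. The motifs passed over in HRAS were a GGACT at 532621, 17 nt after the first base of the stop codon, and 5 with other pentamers. In RRAS, 3 motifs of the 3′ UTR were unlisted, among them a GGACA 117 nt after the first base of the stop codon. In ARAF, 2 were unlisted, among them a GGACC 174 nt after it. The unlisted HRAS GGACT was thus closer to the stop codon than any listed site of the transcript, but it lay in the stretch that the canonical transcript removes as an intron.

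The pentamers of the sites were few. Over HRAS, RRAS and ARAF, 2 of 4 AGACT, 2 of 9 GGACT, 2 of 10 GGACC and 1 of 8 GGACA were listed, beside 16.0%, 26%, 9.12% and 12.8% in all protein-coding transcripts with a site. None of their 48 motifs of other sequence was listed, beside 3.96%. In the 3′ UTR of HRAS, RRAS and ARAF, 2 of 3 GGACT were listed, beside 31.8% over all transcripts with a site. The limit of few motifs in genes taken for holding a site applies here too. The 5 members without sites held 27 GGACT, 18 of them in the 3′ UTR, all unlisted by definition of that group. Of these, BRAF alone had 11 and KSR1 7, and why they were unlisted was not tested.

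**Figure D3:**
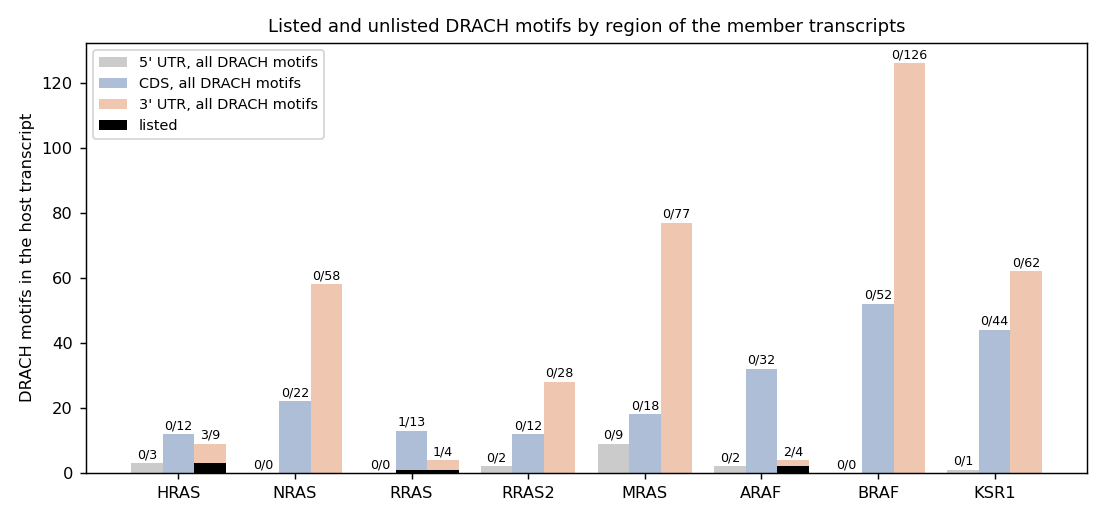
Number of DRACH motifs in the 5′ UTR, coding sequence (CDS) and 3′ UTR of each member's longest transcript, with the listed ones in black and written over each bar as listed/all. BRAF has 126 motifs in its 3′ UTR with none listed, whereas HRAS has 9 with 3 listed.

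Coding motifs of the family lay almost entirely close to junctions. Of 205 coding DRACH motifs in the 8 members, 198 were within 100 nt of an exon junction, with only the RRAS site listed. The other 7, of which KSR1 held 6 and RRAS 1, were unlisted. In the 3 members with sites, 1 of 56 coding motifs up to 100 nt from a junction was listed (1.79%, 0.316 to 9.45), beside 2.44% in all protein-coding transcripts with a site, where the share beyond was 18.1%. The longest exon other than the last was 179 nt in HRAS and NRAS, 198 nt in RRAS and 203 nt in ARAF, and it was 364 nt in BRAF, 421 nt in RRAS2, 460 nt in KSR1 and 629 nt in MRAS. In the 5′ UTRs, none of the 5 motifs of the members with sites was listed, beside 3.18%. The other members, which have no site by definition, held 12.

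The sites lay in long exons for these genes but in short ones for the list. Counted once per site, the exons that held the 10 sites had a median of 549.5 nt (198 to 586). These were 4 exons, with a median of 441 nt when each was counted once. The 23 other exons of the 3 genes had a median of 132 nt (28 to 203). In the canonical transcripts the median per site was 477.5 nt. Over the 17693 listed sites that lay in an exon of the transcript chosen for their gene, the median exon was 1467 nt, with quartiles of 750 and 2568. The last exons of NRAS, RRAS2, MRAS, BRAF and KSR1 were longer, with a median of 3364 nt (1503 to 7180). Within the family, the last exons with sites were thus the 3 shortest.

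The relatives could be set side by side because their coding exons are alike. HRAS and NRAS, both with 570 nt of coding sequence, share coding exons of 179 and 160 nt, and RRAS and RRAS2 share exons of 88, 103, 109 and 119 nt. ARAF and BRAF, the kinase with the strongest basal activity of the RAF family, share those of 177, 47, 119, 132 and 135 nt. Their base composition differed. The GC content of the transcript was 65.2% in HRAS and 37.4% in NRAS, 63.5% in RRAS and 42.8% in RRAS2, and 59.0% in ARAF and 40.7% in BRAF. In each pair the gene with sites was the GC-richer one.

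At the third codon position the GC content was 81.1% in HRAS and 45.8% in NRAS. It was 83.1% in RRAS and 47.3% in RRAS2, and 74.6% in ARAF and 42.0% in BRAF. The difference thus extended to the coding sequence of these relatives. The 3′ UTR was also shorter in the gene with sites, with 393 nt in HRAS against 3625 nt in NRAS, 284 against 1415 nt in RRAS and RRAS2, and 451 against 7157 nt in ARAF and BRAF. The gene of each pair without sites also had more DRACH motifs, 80 against 24, 42 against 17 and 178 against 38.

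MRAS and KSR1 had no listed site and were not poor in GC. MRAS, a GTPase that acts with SHOC2 in releasing RAF from its inhibited state, had a GC content of 50% and 104 DRACH motifs, 77 of them in a 3′ UTR of 3264 nt. KSR1, a RAF-like scaffold that holds RAF, MEK and ERK together, had 57.0% and 107 motifs, 62 of them in a 3′ UTR of 3043 nt. At the third codon position KSR1 reached 75.8%, above ARAF. KSR1 was therefore the member without sites that was nearest to those with sites in base composition.

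Across all protein-coding genes, the share with a listed site was higher the richer in GC the transcript was. In 5 classes of near-equal size by GC content, it was 1.25% (0.943 to 1.66) in the lowest, which holds NRAS and BRAF, then 5.12% in that of RRAS2, 17.4% in that of MRAS, 35.3% in that of KSR1 and 41.1% (39.6 to 42.7) in the highest. HRAS, RRAS and ARAF all fell in the highest class. By number of DRACH motifs the order was not the same, with 20.4% in the lowest class, which holds HRAS and RRAS, 26.3% in that of ARAF and RRAS2, 18.6% in that of NRAS, and 10.8% in the highest, which holds MRAS, BRAF and KSR1. By length of the 3′ UTR, 16.9% of genes had a site in the class of RRAS, 26% in that of HRAS and ARAF, 23.6% in that of RRAS2, and 14.0% in the highest, which holds NRAS, MRAS, BRAF and KSR1. Expression was not available, and its part in these shares was not tested.

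**Figure D4:**
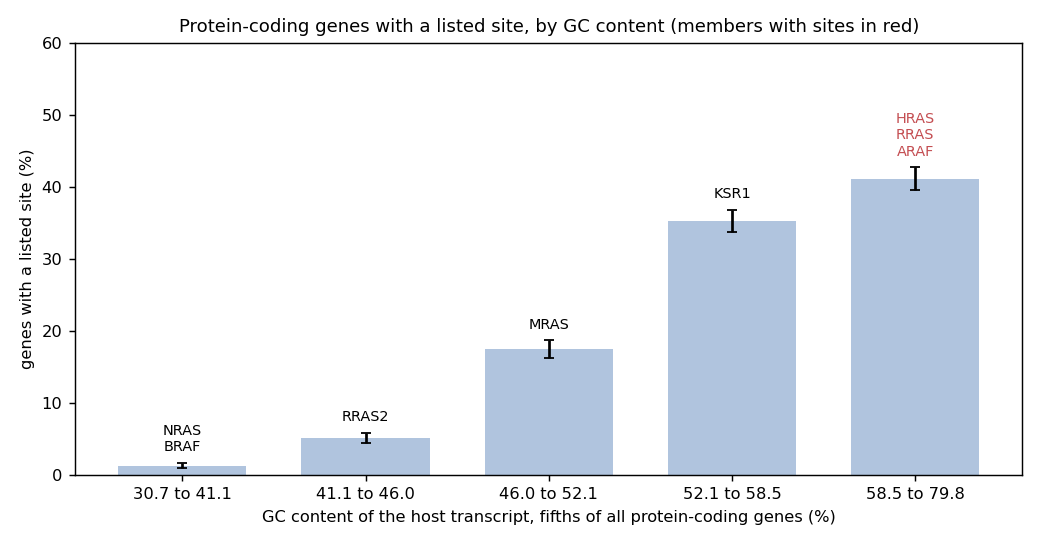
Share of protein-coding genes with at least 1 listed site (%, vertical axis) in 5 classes by GC content of the longest transcript (%, horizontal axis), with 95% Wilson intervals as error bars. Names mark the class of each member, in red for those with sites; the share runs from 1.25% to 41.1%, and all members with sites are in the highest class.

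Around the sites themselves, the GC content within 50 nt on either side of the A had a median of 58.4% over the 10 sites (49.5 to 81.2). It was 59.9% around the unlisted DRACH motifs of the same 3 transcripts and 60.4% around the 17693 listed sites in exons of the chosen transcripts. Around the motifs of the 5 members without sites it was 43.6%. By gene, the median at unlisted motifs was 34.7% in RRAS2, 38.6% in NRAS, 39.6% in BRAF, 49.5% in MRAS and 55.4% in KSR1. Within a transcript, the median was 65.3% at the HRAS sites and 63.4% at its unlisted motifs, 53.8% and 56.9% in ARAF, and 70.8% and 61.4% in RRAS, which has 2 sites. These medians mix regions, and the ARAF sites include those outside DRACH. The HRAS and ARAF sites all lay in the 3′ UTR, where unlisted motifs had medians of 64.9% and 54.5%, close to the sites. In RRAS the 3′ UTR site had 60.4%, beside a median of 56.4% at unlisted 3′ UTR motifs. Its coding site had 81.2%, and unlisted motifs of the same exon reached 83.2%. Among the 10 sites, the highest value was at this coding site of RRAS, and the lowest, 49.5%, at the AAATT of ARAF.

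Other genes of the RAS to ERK pathway gave a similar picture of sites in some members of a role and none in others. Of 62 such genes, 16 carried a listed site (25.8%, 16.6 to 37.9), 77 sites in all, beside 20.0% of protein-coding genes. This gene list was chosen with earlier results of these data known, so its shares and intervals describe it and test nothing. Sites were found in 4 of 6 genes of RAS membrane anchoring or ubiquitination, 2 of 4 adaptors or phosphatases upstream of RAS, 3 of 10 RAF scaffolds or regulators and 3 of 11 other RAS effectors. For 1 of 9 GTPase activating proteins, 1 of 10 related GTPases and none of 8 exchange factors a site was listed, and the intervals of these roles overlapped (10.8 to 60.3% for RAF scaffolds or regulators, 0 to 32.4% for exchange factors). The largest count was 9, in SHC1, an adaptor of receptor tyrosine kinases, in ICMT, which methylates the processed C terminus of RAS proteins, and in LZTR1, which directs RAS proteins to ubiquitination. RAP2B, a GTPase of the RAP branch, and FNTB, a subunit of the farnesyltransferase that anchors RAS, had 8 each, more than any of the 8 RAS and RAF genes.

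Below RAF, the MEK genes divided in the same manner as the RAF genes. MAP2K2 had 3 sites, all coding, with scores of 0.527 to 0.798, and MAP2K1 had none. The GC content of the transcript was 65.4% in MAP2K2 and 51% in MAP2K1. Other relatives in the list went the other way, since RAP2B (41.3% GC) had 8 sites and RAP2C (41.5%) none, and RGL2 (59.2%) had 1 site and RGL3 (61.8%) none. ICMT had its 9 sites at a GC content of 49.9%, whereas RASAL3 (65.6%) and RASGRP2 (63.9%), which act on the GTPase cycle of RAS-type proteins, had none. Without expression values, whether the genes without sites had reads in these cells was unknown, and the part of GC content was not tested. MAPK3, an ERK kinase gene with a GC content of 61.4%, had 3 sites, all in the 3′ UTR, with scores of 0.592 to 0.933.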

How the data were processed

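The labels give 1 group, untreated wild-type C643 cells, in 3 biological replicates and 4 libraries. Per the labels, the authors aligned reads with STAR 2.7.3a to GRCh38.p12 and removed duplicates with UMI-tools 1.0.0. They called crosslink peaks with PureCLIP, kept those found in more than 1 replicate and classified them with m6Aboost, whose inputs were the 21-nt sequence, transcript region, C-to-T transitions and signal relative to the gene. The deposited score is a fraction, the classifier's probability, and only sites of at least 0.5 are listed. Unique alignment, antibody preference and the need for reads in a gene all shape the list.

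Here, sites (0 duplicates, 0 off an A) were placed on GENCODE 44, a later release on the same assembly, and given 1-based. The longest spliced coding transcript with a complete coding sequence was used, limited to support level 3 or better, or none given, and annotation level 2 or better. GC windows stop at transcript ends. DRACH motifs, regions and distances were counted with Python 3.11.15, pandas 2.3.3 and pysam 0.24.0, and shares have 95% Wilson intervals (scipy 1.17.1). The mapping was tested on 200 transcripts, all of which gave the annotated sequence. No significance test was run, since replicates were pooled, and depth per site is unknown. Every member site was named, and of the pathway list the genes with the 3 largest counts and 3 kinases below RAF (MAP2K1, MAP2K2 and MAPK3), while other entries of the gene lists are not reported here; FNTB and RAP2B were added after their counts were seen. Alternatives were a score of at least 0.7, canonical transcripts, other motifs and windows, and leaving out ARAF. Members and gene lists were chosen with earlier results of these data known.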

Additional observations from a re-analysis of the deposited data

How the results depend on the processing

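Of 34 alternatives over 10 results, 28 left the value within its interval or 1.5 times the count. Most of these intervals rest on 10 sites or on 1 and are wide, so large changes can stay inside them. The share near the stop codon, for example, went from 30% to 50% in canonical transcripts, within its interval of 10.8 to 60.3%. Requiring a score of at least 0.7 left 7 sites (HRAS 3, RRAS 1, ARAF 3), all in the 3′ UTR (100%, against 90.0%), with no coding site left for a value. Without ARAF all sites were at DRACH (100%, against 70.0%). Counting GGACT only, 5.56% of the members' motifs were listed, against 1.19%. The single coding site was within 100 nt of a junction, and 0% were within 50 nt. Near the stop codon lay 10.0% of sites within 100 nt and 80.0% within 400 nt, against 30% within 200 nt. These shifts follow from the changed thresholds and sets. No paired analysis was possible because the labels give 1 group. No replicate could be left out because the list pools them, and the comparison of equivalent codons was not run because the family had 1 coding site. Without counts, depth set no interval here.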
